A study of Mus musculus with 6 samples.

Results

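The genes described here are 9 transcripts that mark the red pulp macrophages of the spleen or take part in their recycling of iron: *Spic*, *Vcam1*, *Hmox1*, *Slc40a1*, *Cd163*, *Slc11a1*, *Cd5l*, *Adgre1* and *Treml4*. They were listed by name, out of 53379 genes listed in each library, of which 26045 had at least 1 count in some mouse, and each matched 1 gene identifier. The libraries were made from Tfh cells, while the genes are best known from another cell type than the one that was sorted. Which cells gave their transcripts in these libraries was not tested. Live TCRβ+CD4+CXCR5+PD1+ cells were taken from spleens of females 7 days after they had been given NP-CGG in CFA, and each of 3 CTL and 3 *Prdm1*-CKO mice gave 1 Smart-seq2 library. The *Prdm1*-CKO mice carried *Prdm1* fl/fl with CD11c-CRE, which removes *Prdm1*, the gene of BLIMP-1, in cells that use the CD11c promoter. CD11c is best known from dendritic cells, but some macrophages also express it. The CTL mice were of 2 genotypes, *Prdm1* fl/fl without CRE and *Prdm1* +/+ with CD11c-CRE, and the sample labels do not say which CTL mouse had which. Immunized females were 6 to 8 weeks old. Sample labels name the second group a Blimp1 KO in the titles and a KD in the genotype field.

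Red pulp macrophages take up aged red blood cells, break down the heme of their hemoglobin and return the iron to the blood. Heme oxygenase-1 frees the iron, ferroportin carries it out of the cell, and the transcription factor Spi-C is needed for these macrophages to form. Several of the genes are not exclusive to them. *Hmox1*, *Slc11a1* and *Adgre1* are also used by monocytes and other macrophages, *Treml4* by a class of dendritic cells and by monocytes, and *Vcam1* by stromal cells and blood vessels.

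Total counts lay between 7147601 and 16973392 per mouse, and 3 counts, taken as the floor of detection, correspond to between 0.169 and 0.443 CPM, the TMM-scaled unit of the levels given here. Counting error only is covered by that floor. CTL replicate 2 stood apart from the other mice, with a mean correlation across genes of 0.875 with them against 0.923 to 0.944 for the others, so results that rest on it are also given without it. *Prdm1* itself was at 28.7 ± 1.22 CPM (SD, n = 3) in CTL and 30.6 ± 0.367 CPM (SD, n = 3) in *Prdm1*-CKO Tfh. The *Prdm1*-CKO mice were all slightly above the CTL mice (edgeR log2 fold change 0.09, adjusted p = 0.996). Its level does not check the labels, since the deletion is aimed at cells that use the CD11c promoter and not at T cells. Whether it reached any of the sorted cells was not tested. The 10 T and Tfh cell markers (*Cd3d*, *Cd3e*, *Cd3g*, *Cd4*, *Cxcr5*, *Pdcd1*, *Bcl6*, *Icos*, *Il21* and *Tox2*) were found in every mouse, with a summed level between 3478 and 4473 CPM. Markers of myeloid cells were found in every mouse as well. Per length of transcript, *Lyz2*, the lysozyme of monocytes, macrophages and neutrophils, was at a mean of 2239 RPKM (CPM per kilobase of exon) against 224.0 RPKM for *Cd4*, a T cell surface protein.

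All 9 genes were found in all 6 mice and all passed the expression filter. Their summed counts made up 0.0280% of the library in CTL replicate 2, the lowest, and 0.1002% in CTL replicate 1, the highest, with the *Prdm1*-CKO mice between 0.0681% and 0.0869%. Per length, *Treml4* was the highest at 64.7 ± 18.9 RPKM (SD, n = 6), and it exceeded *Hmox1* at 62.9 ± 22.4 RPKM (SD, n = 6) in 3 of 6 mice, so these do not differ beyond their spread. *Slc11a1* followed at 30.3 ± 10.5 RPKM (SD, n = 6), below *Hmox1* in 6 of 6 mice, and *Adgre1* at 20.6 ± 11.4 RPKM (SD, n = 6), below *Slc11a1* in 6 of 6 mice. The next genes lay close together. *Vcam1* was at 11.5 ± 4.28 RPKM, *Slc40a1* at 10.5 ± 5.73 RPKM, *Cd5l* at 9.43 ± 3.81 RPKM and *Spic* at 9.13 ± 3.43 RPKM (SD, n = 6 each), and the order of neighbors changed between mice in each pair of them. *Cd163* was the lowest at 2.37 ± 0.573 RPKM (SD, n = 6), below *Spic* in 6 of 6 mice. *Treml4* had a higher mean RPKM than 94.6% of the genes tested, and *Cd163* than 30.5%. With the longest transcript in place of all exons as the length, the first 3 genes and the last kept their places, and *Vcam1* and *Slc40a1* moved up to 24.97 and 24.11 RPKM, above *Adgre1*. For comparison, *Csf1r*, the receptor for the macrophage growth factor, was at 104.7 RPKM on the exon scale.

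The promoters of 5 of the 9 genes (*Spic*, *Cd163*, *Slc11a1*, *Cd5l* and *Treml4*) are in the RefSeq sequences used here, on GRCm38.p6. Below are the 250 bases before the start site of *Cd5l*, the gene in which the groups of mice did not overlap, of *Treml4*, the gene with the highest level, and of *Spic*, the lineage transcription factor. Capitals mark GAGGAA on either strand, the core of the site that PU.1 and Spi-C bind, which reads ttcctc where it lies on the reverse strand.
Cd5l, chr3:87357631-87357880, + strand: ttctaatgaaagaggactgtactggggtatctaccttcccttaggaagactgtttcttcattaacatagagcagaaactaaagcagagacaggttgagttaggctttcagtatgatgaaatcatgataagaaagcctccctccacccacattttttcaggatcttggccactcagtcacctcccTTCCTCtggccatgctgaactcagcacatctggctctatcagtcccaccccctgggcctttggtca
Treml4, chr17:48264045-48264294, + strand: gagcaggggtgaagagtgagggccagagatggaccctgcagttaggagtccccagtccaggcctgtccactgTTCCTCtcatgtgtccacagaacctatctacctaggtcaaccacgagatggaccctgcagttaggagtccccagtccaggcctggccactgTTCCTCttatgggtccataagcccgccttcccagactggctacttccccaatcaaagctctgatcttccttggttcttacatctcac
Spic, chr10:88683024-88683273, - strand: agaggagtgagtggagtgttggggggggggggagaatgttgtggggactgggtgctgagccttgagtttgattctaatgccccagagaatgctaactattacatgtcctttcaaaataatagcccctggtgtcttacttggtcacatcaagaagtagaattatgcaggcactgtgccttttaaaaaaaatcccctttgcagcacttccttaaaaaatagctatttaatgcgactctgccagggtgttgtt
The RefSeq start site used for *Spic* lies inside the gene's span in GENCODE, which begins further upstream. GAGGAA begins 178 and 87 bases before the start site of *Treml4* and 66 bases before that of *Cd5l*, each time on the reverse strand. *Slc11a1* has it once, 152 bases before its start. It was not found in these windows of *Spic* and *Cd163*. Of all 32851 windows of this length, 23.3% hold it. TGACNNNGC, the core of the antioxidant response element that NRF2 and BACH1 share, was in none of the 5 windows and in 10.2% of all windows, and the element of LXR, a repeat of AGGTCA after 4 bases, was in none of the 5 and in 0.0152% of all. The motifs were searched on both strands and do not overlap each other in these windows. A match or its absence describes these letters only.

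*Spic*, the transcription factor of the lineage, lies on chromosome 10 of GRCm38 from 88674772 to 88685015. In CTL replicates 1, 2 and 3, in that order here and below, its level was 47.0, 15.7 and 28.2 CPM, and the *Prdm1*-CKO mice were at 33.6, 33.5 and 52.4 CPM. The groups overlapped, since CTL replicate 1 was above 2 of the *Prdm1*-CKO mice. *Prdm1*-CKO against CTL gave a log2 fold change of 0.39 (SE, the standard error, 0.39, 95% interval -0.51 to 1.29, edgeR quasi-likelihood adjusted p = 0.996), 0.07 without CTL replicate 2 and 0.84 without CTL replicate 1.

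*Vcam1*, on chromosome 3 from 116109949 to 116129688, encodes an adhesion molecule by which macrophages and stromal cells hold other cells. It was at 144.6, 52.0 and 64.4 CPM in the CTL mice and 120.3, 96.2 and 135.0 CPM in the *Prdm1*-CKO mice. CTL replicate 1 was the highest of all mice and the other CTL mice were the lowest. Between the groups the log2 fold change was 0.43 (SE 0.36, 95% interval -0.41 to 1.26, edgeR adjusted p = 0.996). It was 0.16 without CTL replicate 2 and 0.996 without CTL replicate 1. Its exons share 61 bp with *Gm43109* on the opposite strand, and the strand setting of the counting is not given in the sources used here.

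Among the genes of heme and iron, *Hmox1* encodes heme oxygenase-1, which splits heme into biliverdin, carbon monoxide and iron (chromosome 8, from 75093621 to 75100589). It was at 149.9, 41.2 and 96.4 CPM in the CTL mice and 129.6, 106.1 and 137.5 CPM in the *Prdm1*-CKO mice. All 3 *Prdm1*-CKO mice lay within the range of the CTL mice. With all mice the log2 fold change was 0.37 (SE 0.39, 95% interval -0.53 to 1.28, edgeR adjusted p = 0.996), and it was 0.0059 without CTL replicate 2 and 0.84 without CTL replicate 1.

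*Slc40a1* encodes ferroportin, the iron exporter (chromosome 1, from 45908068 to 45926523). It was at 164.2, 28.8 and 41.8 CPM in the CTL mice and 105.1, 98.9 and 129.4 CPM in the *Prdm1*-CKO mice. Again CTL replicate 1 was the highest of all mice and CTL replicates 2 and 3 the lowest, with a 5.69-fold range among CTL mice and a 1.31-fold range among *Prdm1*-CKO mice. The log2 fold change of 0.50 (SE 0.57, 95% interval -0.81 to 1.80, edgeR adjusted p = 0.996) ran from 0.10 without CTL replicate 2 to 1.64 without CTL replicate 1.

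*Slc11a1* encodes NRAMP1, which moves iron and manganese out of the phagosome (chromosome 1, from 74375195 to 74386062). It was at 161.0, 49.4 and 94.3 CPM in the CTL mice and 135.6, 103.6 and 130.4 CPM in the *Prdm1*-CKO mice, all 3 within the CTL range. Its log2 fold change was 0.28 (SE 0.37, 95% interval -0.57 to 1.13, edgeR adjusted p = 0.996) and turned to -0.06 without CTL replicate 2.

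*Cd163*, the receptor that takes up hemoglobin bound to haptoglobin, was the exception among the 9 genes (chromosome 6, from 124304656 to 124330527). It was at 15.7, 15.7 and 10.6 CPM in the CTL mice and 11.2, 8.72 and 15.7 CPM in the *Prdm1*-CKO mice. CTL replicate 2, the lowest mouse for the other 8 genes, was level with the highest mice for *Cd163*. Its log2 fold change was -0.24 (SE 0.33, 95% interval -1.002 to 0.53, edgeR adjusted p = 0.996), the only one of the 9 below 0. It ran from -0.49 without *Prdm1*-CKO replicate 3 to -0.05 without *Prdm1*-CKO replicate 2.

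Of the secreted and surface proteins, *Cd5l* (also called AIM) is released by tissue macrophages and binds dying cells and lipids, and it is a known target of the nuclear receptor LXR. On chromosome 3 from 87357881 to 87371073, it was at 16.9, 9.45 and 13.4 CPM in the CTL mice and 22.2, 21.7 and 31.5 CPM in the *Prdm1*-CKO mice. The groups did not overlap (two-sided exact permutation test, p = 0.1, which a design of 3 against 3 cannot go below). The log2 fold change was 0.92 (SE 0.30, 95% interval 0.22 to 1.61, edgeR unadjusted p = 0.0158 and adjusted p = 0.996), so *Cd5l* did not pass the test across all genes, in which it stood at rank 75 of 14555 by p. DESeq2 gave it an adjusted p of 0.894. With 1 mouse left out, its log2 fold change lay from 0.72 to 1.12. The paper reports higher *Cd5l* in *Prdm1*-CKO Tfh by quantitative PCR in a separate cohort of immunized mice. Those PCR values were not examined here.

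*Adgre1* encodes F4/80, the surface protein by which mouse macrophages are recognized. CTL mice had 1300, 24 and 354 counts of it, or 88.9, 2.84 and 52.3 CPM. *Prdm1*-CKO mice had 1432, 655 and 1600 counts, or 80.5, 66.4 and 109.3 CPM. The low value in CTL replicate 2 sets it apart from the other genes, since CTL replicate 1 was 31.3-fold higher there, against 5.69-fold at most for the other 8 genes. The log2 fold change of 0.83 (SE 0.83, 95% interval -1.09 to 2.74, edgeR adjusted p = 0.996) fell to 0.27 without CTL replicate 2 and rose to 1.62 without CTL replicate 1. *C1qa*, a complement gene of macrophages, also had 24 counts in CTL replicate 2, with between 152 and 806 in the other mice.

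*Treml4* encodes a receptor of the TREM family that binds dying cells (chromosome 17, from 48264295 to 48275360). It was at 182.4, 69.9 and 107.3 CPM in the CTL mice and 134.7, 138.2 and 142.5 CPM in the *Prdm1*-CKO mice. The *Prdm1*-CKO mice were nearly level with each other, within a 1.06-fold range, while the CTL mice spanned 2.61-fold. The groups differed by a log2 fold change of 0.21 (SE 0.31, 95% interval -0.50 to 0.91, edgeR adjusted p = 0.996) and turned to -0.07 without CTL replicate 2.

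**Figure D1:**
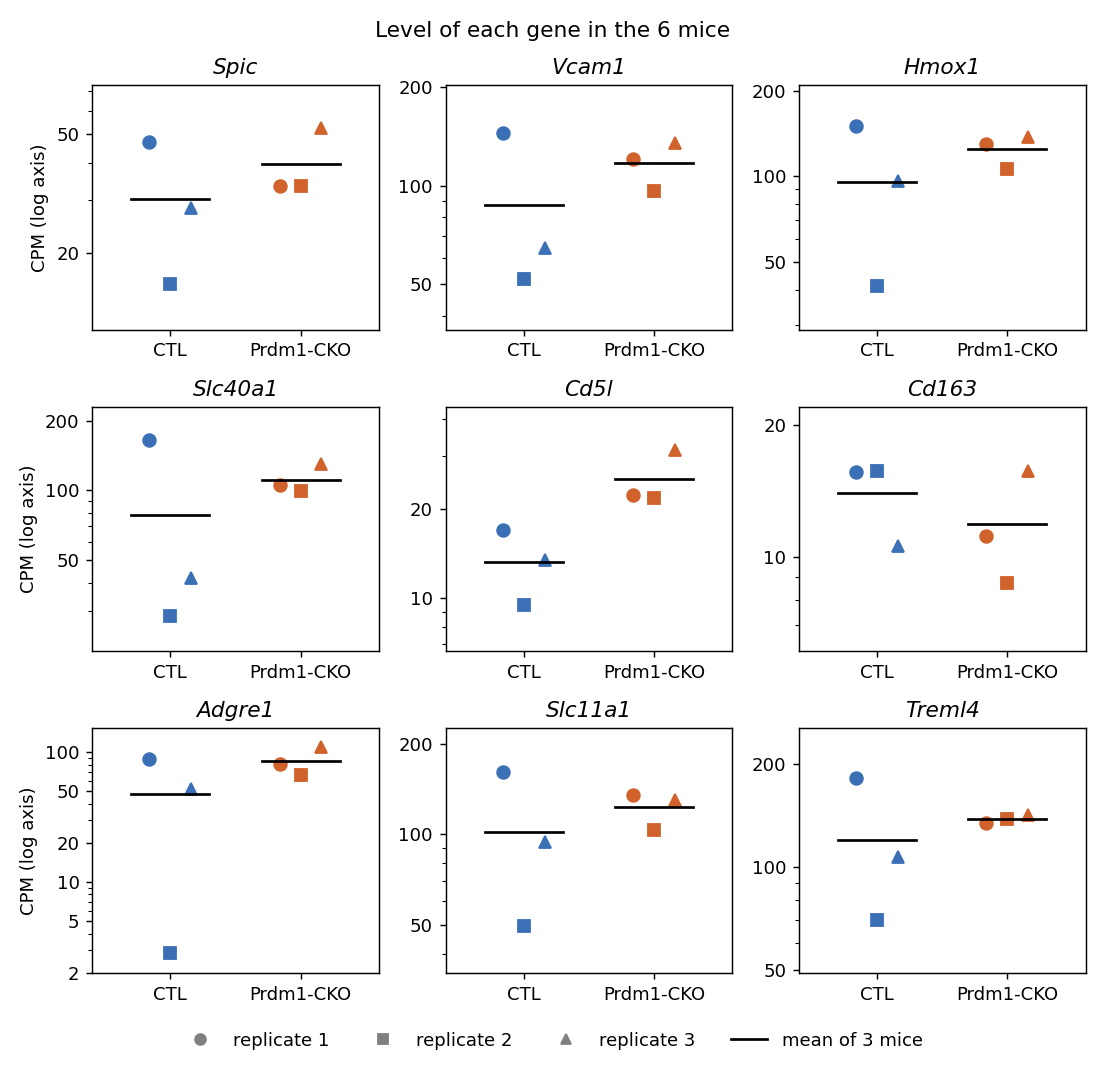
Level of each of the 9 genes in the 3 CTL mice (blue) and the 3 Prdm1-CKO mice (orange), in CPM on a log axis, with 1 point per mouse and a line at the mean of each group. CTL replicate 2 is the lowest mouse in every panel but that of Cd163, CTL replicate 1 lies among or above the Prdm1-CKO mice in every panel but that of Cd5l, and only in Cd5l are all Prdm1-CKO mice above all CTL mice.

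Across the 9 genes, 0 were at an adjusted p under 0.05 in edgeR, as for 0% of the 14555 genes tested, and 0 in DESeq2. At an unadjusted p under 0.05, 1 of the 9 (*Cd5l*) was higher in *Prdm1*-CKO Tfh, where 0.928% of all genes were higher and 2.35% differed in either direction. The lowest *Prdm1*-CKO mouse was above the highest CTL mouse in 1 of the 9, again *Cd5l*, and in 4.56% of all genes, and the highest was below the lowest CTL mouse in 0 of the 9 and in 3.88% of all genes. The log2 fold change was above 0 in 8 of 9 genes, with a median of 0.39 beside 0.01 over all genes tested, and 15.0% of all genes had a value above 0.39. The median of the 9 was 0.07 without CTL replicate 2 and 0.84 without CTL replicate 1. The 95% intervals of the other 8 genes include 0 and reach as far as 2.74, and for 6 of them the upper end is above 1, a 2-fold difference.

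**Figure D2:**
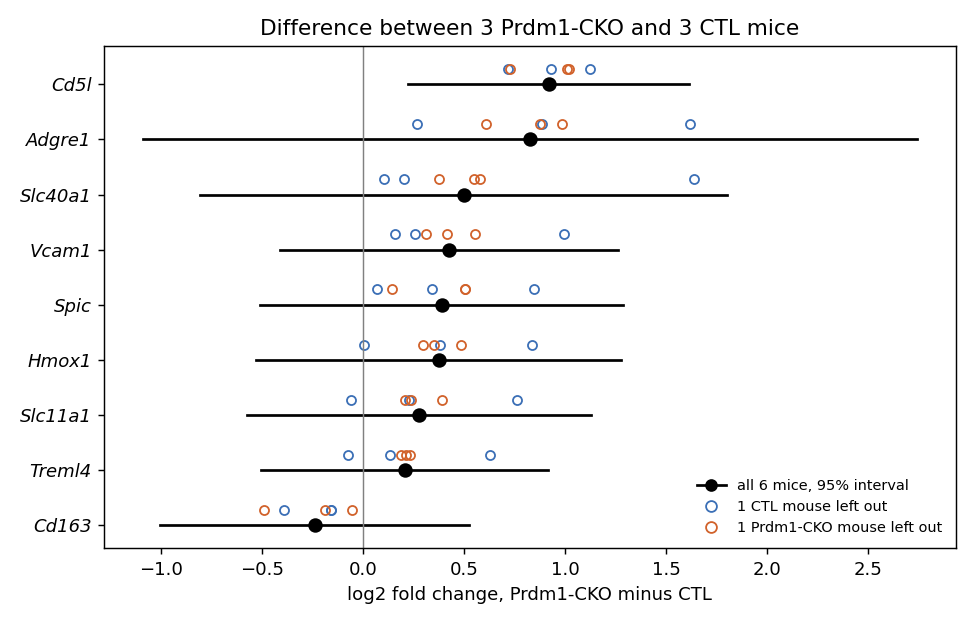
Log2 fold change of each gene between 3 Prdm1-CKO and 3 CTL mice (black points, edgeR) with its 95% interval (black bars), and the same value with 1 CTL mouse (open blue) or 1 Prdm1-CKO mouse (open orange) left out. Only the interval of Cd5l, from 0.22 to 1.61, leaves out 0, and the values without 1 CTL mouse spread most, from 0.10 to 1.64 for Slc40a1.

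In 8 of the 9 genes the CTL mice spanned a larger fold range among themselves than the ratio of the group means, *Cd5l* being the exception with 1.79-fold among CTL mice and 1.90-fold between the means. CTL replicate 2 was the lowest of the 6 mice in 8 of the 9 genes, as in 34.9% of all genes tested. CTL replicates 2 and 3 were both below the other 4 mice in 8 of 9, as in 12.0% of all genes. The median SD of log2 CPM over the 9 genes was 0.79 among CTL mice and 0.25 among *Prdm1*-CKO mice, and over all genes tested it was 0.45 and 0.25. In 5 of the 9 genes all 3 *Prdm1*-CKO mice lay within the CTL range. Summed, the 9 genes came to 970.6, 285.1 and 508.7 CPM in CTL and to 772.9, 673.3 and 883.8 CPM in *Prdm1*-CKO mice. The mice with the lowest levels, CTL replicates 2 and 3, also had the lowest total counts, 8623180 and 7147601, followed by *Prdm1*-CKO replicate 2 with 9753574. With all libraries thinned to the same total, the log2 fold changes were close to those at full depth, with a median of 0.38 over the 9 genes. Thinning evens out the total counts only, so other differences between libraries that go with their size were not tested.

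Most of the 9 genes varied together across mice. Over the 36 pairs of them, Pearson's r of log2 CPM had a median of 0.90 and a range from -0.29 to 0.99, and Spearman's rho a median of 0.86. Over all pairs of genes tested, the median r was 0.00020, and 2.15% of pairs had an r above 0.90. After Benjamini-Hochberg adjustment over the 36 pairs, 22 had an exact permutation p of r under 0.05 and 16 an exact permutation p of rho under 0.05. Every mouse gives both values of a pair, from the same library and the same scaling. The highest values were those of *Hmox1* with *Slc11a1* (r = 0.989, exact permutation p = 0.00278, adjusted 0.0100, rho = 0.943, exact permutation p = 0.0167, adjusted 0.0375, r = 0.972 without CTL replicates 1 and 2) and of *Vcam1* with *Slc40a1* (r = 0.987, exact permutation p = 0.00139, adjusted 0.0100, rho = 1, exact permutation p = 0.00278, adjusted 0.0250, r = 0.882 without CTL replicates 2 and 3). Without the pair of mice farthest from the median of the first gene, the median r over the 36 pairs was 0.85 and r stayed above 0 in 30. Without CTL replicate 2 alone the median was 0.82. Each group holds too few mice for a value within it.

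*Cd163* and *Cd5l* were the weaker partners. With *Cd163*, r lay between -0.29 and 0.13 for the 8 other genes, and without CTL replicate 2 between 0.28 and 0.86. *Cd5l* had r between 0.72 and 0.85 with the genes other than *Cd163*, the lowest with *Treml4*, and without CTL replicate 2 between 0.27 and 0.78. In 1 of these 7 pairs, that with *Adgre1*, the adjusted exact permutation p of r was under 0.05 (r = 0.821, rho = 0.829, adjusted p = 0.0200 for r and 0.0913 for rho by exact permutation, r = 0.537 without CTL replicate 2 and *Prdm1*-CKO replicate 3).

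**Figure D3:**
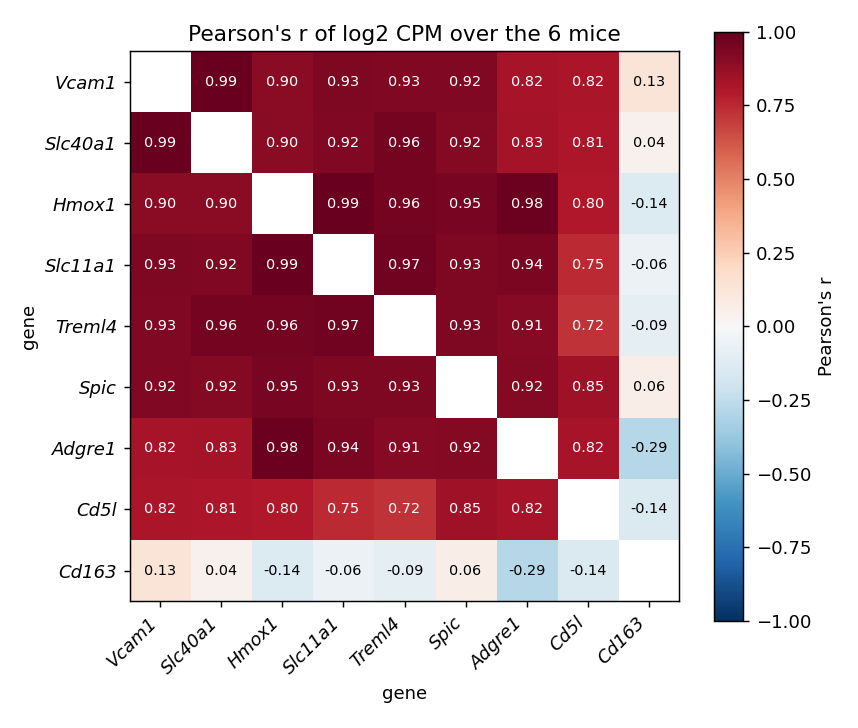
Pearson's r of log2 CPM over the 6 mice for each pair of the 9 genes, from blue (-1) to red (1), with the value in each cell. The 7 genes other than Cd5l and Cd163 have r between 0.82 and 0.99 with each other, Cd5l has r between 0.72 and 0.85 with them, and Cd163 stays between -0.29 and 0.13 with all others.

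Other macrophage genes, summed, were also lowest in CTL replicates 2 and 3. The 14 other red pulp macrophage genes (among them *Mrc1*, *Csf1r*, *C1qa*, *C1qb*, *C1qc*, *Axl*, *Mertk*, *Sirpa* and *Cd68*) had a summed level of 1618.5, 644.2 and 846.1 CPM in the CTL mice and 1504.5, 1209.4 and 1731 CPM in the *Prdm1*-CKO mice. CTL replicate 2 was the lowest mouse in 9 of the 14. All 14 had a log2 fold change above 0, where 51.1% of all genes did, with a median of 0.44. Without CTL replicate 2, 11 of the 14 were above 0, beside 48.6% of all genes, and the median was 0.19. At an unadjusted p under 0.05, 0 of the 14 were then higher, beside 1.43% of all genes. Without CTL replicate 1 the median was 0.99 and 7 of the 14 were higher, beside 3.94% of all genes. With all mice, at an unadjusted p under 0.05, where 0.928% of all genes were higher, *Sirpa*, an inhibitory receptor, at 0.91 and *C1qc* at 1.49 were higher (edgeR adjusted p = 0.996 for both), and 0 passed at an adjusted p. *C1qc* did not share the pattern of the 9 genes, with 8.82 CPM in CTL replicate 1 against 28.9 CPM in CTL replicate 3. The defining markers *Mrc1*, *Csf1r* and *C1qa* were above the floor of 3 counts in every mouse. The 8 monocyte and neutrophil genes summed to between 2124 and 3863 CPM in CTL and between 3352 and 3839 CPM in *Prdm1*-CKO mice. Their defining markers *Ly6c2*, *Ccr2* and *Lyz2* were also well above the floor in every mouse. The sum of the T and Tfh cell markers, most of it *Cd4* and the Cd3 genes, had a 1.29-fold range over the 6 mice, against 3.40-fold for the sum of the 9 genes. Single markers ranged from 1.17-fold (*Cd3d*) to 3.30-fold (*Tox2*) and 4.02-fold (*Il21*), where the median range of the 9 genes was 3.33-fold. Of the 10, 1, *Cd4*, was lower in *Prdm1*-CKO Tfh at an unadjusted p of 0.0465 (log2 fold change -0.29, edgeR adjusted p = 0.996). In such bulk samples fewer macrophages and less of these transcripts per macrophage cannot be told apart, and the part of any other cell type in these results was not tested.

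Markers of other cell types were at lower summed levels. The 8 dendritic cell genes summed to between 156.3 and 222.9 CPM in CTL and between 151.1 and 284.7 CPM in *Prdm1*-CKO mice, and the 6 B cell genes to between 101.8 and 166.2 CPM against 144.1 and 220.5 CPM. All 6 B cell genes had a log2 fold change above 0, beside 51.1% of all genes, with a median of 0.75. Of the 7 dendritic cell genes that passed the filter, 3 were above 0, with a median of -0.03. Of the marginal zone macrophage genes *Marco*, *Siglec1*, *Cd209b* and *Timd4*, 0 counts were found in CTL replicate 2, and the other mice had between 6.90 and 13.7 CPM for the sum of the 4. Of the 10 genes of stromal cells, which also use *Vcam1*, 6 were detected and 2, *Col1a1* and *Pecam1*, passed the expression filter. *Col1a1* had at most 31 counts in a mouse, and *Pdgfrb*, *Cxcl13*, *Cdh5* and *Madcam1* at most 23. *Col1a2*, *Col3a1*, *Pdpn* and *Ccl19* had 0 counts in all 6 mice. *Pecam1*, which leukocytes also express, made up nearly all of the stromal sum of 148.1 to 216.4 CPM. Whether stromal cells gave any of the *Vcam1* counts was not tested. The 7 erythroid genes summed to 8.54, 7.09 and 17.6 CPM in the CTL mice and 47.3, 12.1 and 39.2 CPM in the *Prdm1*-CKO mice. Of the 4 that passed the expression filter, 3 were higher at an unadjusted p under 0.05, where 0.928% of all genes were. These were the hemoglobin genes *Hba-a1*, *Hbb-bs* and *Hbb-bt*, at log2 fold changes of 1.29, 1.88 and 1.76 (edgeR adjusted p = 0.996 for each). With 1 mouse left out, the number of erythroid genes that passed the filter changed as well. Without CTL replicate 1, 0 of 4 were higher, beside 3.94% of all genes. Without *Prdm1*-CKO replicate 1, 0 of 3 were, beside 0.683%. It was 1 of 5 without CTL replicate 2 (1.43% of all genes) and 1 of 5 without CTL replicate 3 (2.14%). Without *Prdm1*-CKO replicate 2 it was 3 of 5 (0.494%), and without *Prdm1*-CKO replicate 3 it was 1 of 3 (0.394%). Near-identical copies of the globin genes make the split of reads between them uncertain.

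**Figure D4:**
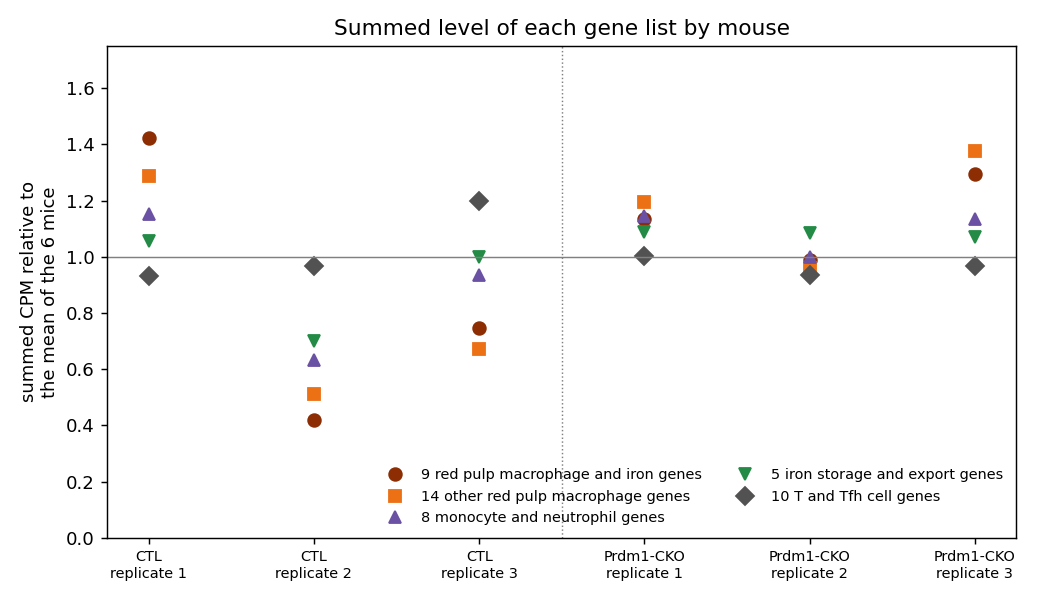
Summed CPM in each mouse of 5 gene lists (the 9 genes, other red pulp macrophage, monocyte and neutrophil, iron storage and export, and T and Tfh cell genes), divided by the mean of the 6 mice, on a linear axis. The 9 red pulp macrophage and iron genes and the 14 other red pulp macrophage genes are lowest in CTL replicate 2 and high in CTL replicate 1 and Prdm1-CKO replicate 3, while the sum of the 10 T and Tfh cell genes spans a 1.29-fold range.

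Set against *Csf1r* in the same library, most of the 9 genes held a steadier ratio. This ratio was chosen after the values had been seen. The summed level of the 9 genes relative to *Csf1r* varied 1.47-fold over the 6 mice, where the sum itself varied 3.40-fold and *Csf1r* 2.59-fold. *Vcam1* was the steadiest. It was at 17.5%, 16.3% and 16.7% of the CPM of *Csf1r* in the CTL mice and at 16.3%, 17.3% and 16.8% in the *Prdm1*-CKO mice, a range of 1.08-fold. Of the other genes tested, 0 had a smaller range of their ratio to *Csf1r*, and the median range over all genes tested was 3.55-fold. *Cd5l* was at 2.05%, 2.97% and 3.48% of *Csf1r* in the CTL mice and at 3.01%, 3.89% and 3.91% in the *Prdm1*-CKO mice. On this scale the groups overlapped, since CTL replicate 3 was above *Prdm1*-CKO replicate 1. *Slc40a1* ranged 2.20-fold, with 19.9%, 9.05% and 10.8% of *Csf1r* in the CTL mice and 14.2%, 17.7% and 16.1% in the *Prdm1*-CKO mice. *Adgre1* was at 0.890% in CTL replicate 2 and at 10.8% or more in the other mice, and *Cd163* was at 4.93% in CTL replicate 2 and at most 2.76% in the others.

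Beyond these 9 genes, the wider set of iron handling genes gave few differences between the groups. Of 37 genes in 5 lists (uptake and transport, heme and hemoglobin, storage and export, sensing and regulation, and mitochondrial iron), 31 passed the expression filter and 0 were at an adjusted p under 0.05. At an unadjusted p under 0.05, 0 were higher and 1 was lower, where 0.928% and 1.42% of all genes were. The median log2 fold change of the 31 was 0.14, and 20 were above 0.

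Ferritin, which stores iron, was the most abundant part. Its heavy chain *Fth1* was at 853.2, 618.4 and 854.8 CPM in the CTL mice and 918.9, 933.3 and 933.2 CPM in the *Prdm1*-CKO mice, and the groups did not overlap. Its log2 fold change was 0.26 (SE 0.15, edgeR adjusted p = 0.996). The light chain *Ftl1* was at 255.7 ± 83.3 CPM in CTL and 288.3 ± 16.7 CPM in *Prdm1*-CKO mice (SD, n = 3 each), a log2 fold change of 0.17 with overlap between the groups. *Ncoa4*, which delivers ferritin for breakdown, was at 16.2 ± 4.17 against 17.1 ± 3.46 CPM (SD, n = 3 each).

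*Tfrc*, the transferrin receptor that brings iron into dividing cells, differed from most of the 9 genes mainly in CTL replicate 2 and *Prdm1*-CKO replicate 3. It was at 55.0, 68.1 and 29.1 CPM in the CTL mice and 58.5, 25.05 and 25.08 CPM in the *Prdm1*-CKO mice, with a log2 fold change of -0.48 (SE 0.42, edgeR adjusted p = 0.996). CTL replicate 2, low for most of the 9, was the highest. *Slc48a1*, the heme transporter of the phagosome, was at 72.5 ± 12.3 against 66.1 ± 1.82 CPM (SD, n = 3 each), with overlap. *Blvrb*, a biliverdin reductase downstream of heme oxygenase, was at 19.96, 4.37 and 16.7 CPM in the CTL mice and 20.5, 19.4 and 16.3 CPM in the *Prdm1*-CKO mice. Of the transcription factors that control *Hmox1*, the repressor *Bach1* was at 12.8 ± 5.41 against 20.3 ± 3.54 CPM, with a log2 fold change of 0.66 (SE 0.37, edgeR adjusted p = 0.996). The activator *Nfe2l2* was at 98.4 ± 29.6 against 116.8 ± 9.25 CPM (SD, n = 3 each), with a log2 fold change of 0.25 (SE 0.23, edgeR adjusted p = 0.996). Both were lowest in CTL replicate 2. *Hamp*, the gene of the iron hormone hepcidin, *Bmp6* and *Heph* had 0 counts in all 6 mice and were not detectable at this depth.

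The genes whose pattern over the 6 mice was most like that of the 9, by the mean Pearson's r of log2 CPM with them, were *Nrros*, *Clec4a3*, *Tlr7*, *Zyx*, *Gm5864*, *Cd36*, *Mef2c*, *Clec4a1*, *Rxra* and *Sat1*, with a mean r from 0.837 to 0.843. *Cd36*, a scavenger receptor for lipids, was at 140.1, 39.3 and 68.3 CPM in the CTL mice and 90.3, 85.6 and 122.3 CPM in the *Prdm1*-CKO mice. *Tlr7*, a receptor for single-stranded RNA, was at 70.2, 18.1 and 31.9 CPM in the CTL mice and 54.7, 42.8 and 60.5 CPM in the *Prdm1*-CKO mice. In both, as in 5 of the 9 genes, CTL replicate 1 was the highest mouse and CTL replicates 2 and 3 were the lowest. Without CTL replicate 2 the mean r of the 10 genes lay between 0.851 and 0.873. The 10 were picked by their r over these same mice, so neither range is a test of their likeness. The adjusted p of their difference between the groups was 0.996 from edgeR for each.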

How the data were processed

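Tfh libraries of 3 CTL and 3 Prdm1-CKO mice were compared. The authors deposited raw counts per gene, without normalization, from Smart-seq2 libraries read as pairs of 25 bp, aligned to GRCm38 and counted by featureCounts. The submitters' processing notes name STAR 2.4.2a, DESeq2 and GRCm38.p6. Strandedness and the treatment of multiply aligned reads and of mates are not given in the sources used here. Gene annotation was GENCODE M21 on GRCm38, matching 53274 of 53379 identifiers. Adgre1 has another version there, so its coordinates are left out.

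The test was edgeR 4.0.16 in R 4.3.3 (TMM, filterByExpr, two-sided quasi-likelihood F test, Benjamini-Hochberg adjustment over 14555 genes) without covariates. SE was the fold change divided by the root of F. RPKM used the union of exons and log2 CPM a prior count of 2. On simulated data, 63.5% of 200 genes changed 4-fold were recovered with 5 false calls.

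The 9 genes, the other lists and the motifs were chosen with earlier results of these data known. Named genes were the 9, Prdm1, chosen iron genes, listed genes at an unadjusted p under 0.05 and the 10 genes most like the 9. Fth1 was among the chosen iron genes, and Csf1r and C1qa were defining markers of their list. Setting Csf1r and C1qa beside the 9 genes, and naming Pecam1, was decided after their values were seen. Some listed genes are counted but not reported here by name. Alternatives were DESeq2 1.42.0 (size factors and Wald test), no filter, a minimum of 10 counts per mouse, a block for replicate number, each mouse left out, CPM by total counts, a prior count of 0.5, the longest transcript as length and, added after seeing the data, thinning to 7147601 counts and marker lists with each mouse left out.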

Additional observations from a re-analysis of the deposited data

How the results depend on the processing

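Of 108 recomputed fold changes of the 9 genes under 12 alternatives, 106 kept their direction and their side of the threshold. Slc11a1 at -0.059 and Treml4 at -0.074, both without CTL replicate 2, turned below 0, and with other mice left out they reached 0.76 and 0.63. Over all genes at an adjusted p under 0.05, where edgeR had 0, the DESeq2 Wald test called 7 as higher and 2 as lower. At an unadjusted p it called 264 and 417, against 135 and 207. Without a filter 1 gene was higher at an adjusted p, and at an unadjusted p 426 were higher and 510 lower. With 1 mouse left out, the unadjusted counts lay between 58 and 580 higher, between 107 and 617 lower, and for iron list genes between 0 and 1 higher and between 0 and 2 lower. The causes were not tested.

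Taking the replicate number as a block moved the median log2 fold change of the 9 genes from 0.39 to 0.55, that of Adgre1 from 0.83 to 1.53 and that of Slc40a1 from 0.50 to 0.94, with 0 of the 9 at an adjusted p under 0.05. Mice that share a number are separate animals, and the correlations of their deviations from the group means were 0.158, 0.028 and 0.016, so the numbers were not taken to pair the mice. The summed level of the 9 genes differed by 0.40 on the log2 scale and by 0.42 with CPM by total counts. The median correlation was 0.90 with a prior count of 0.5. With 3 mice a group, the widest interval of the 9 was that of Adgre1, from -1.09 to 2.74.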
